A study of Mus musculus with 18 samples.

Results

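The solute carrier families SLC1, SLC3, SLC7, SLC36, SLC38 and SLC43, which hold most of the membrane proteins that move amino acids in and out of liver cells, were followed across the livers of diabetic mice and a hepatocyte line treated with recombinant mouse serum albumin (rMSA). Members were picked by a rule on gene symbols that uses no expression value, as Slc1a, Slc3a, Slc7a, Slc36a, Slc38a or Slc43a followed by a number. The liver table held 37 such genes among 16533, and the AML12 table held 32 among 15579. Over both tables there were 38 members, of which 31 were in both, 6 in the liver table only (Slc1a3, Slc7a10, Slc7a13, Slc38a4, Slc38a5 and Slc43a1) and 1 in the AML12 table only (Slc7a9). The symbol of Slc7a6os, a gene on the opposite strand next to Slc7a6 that codes no transporter, also fitted the pattern and was kept out of these counts.

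RNA from 18 samples in 6 groups of 3 was sequenced. The liver groups were rMSA and saline, both male db/db mice of the strain B6.Cg-dock7m Leprdb/++/J, whose leptin receptor is mutated, leading to obesity and diabetes. Mice of the rMSA group received 1.5 mg rMSA per gram of body weight into a vein every 3 weeks, 3 injections over 9 weeks, and the saline group received an equal volume of saline; the age of the mice is not given, and no untreated or lean liver was analysed here. The cell groups were rMSA with insulin, rMSA, insulin and vehicle, all AML12 cells, an immortalized line from mouse hepatocytes, starved overnight without serum and then exposed for 24 h to 600 μM rMSA, 10 nM insulin or both. AML12 is 1 cell line kept in medium with insulin and dexamethasone, and separate cultures for the 3 libraries of a group are not stated, so that p-values for the cells measure only the spread between these libraries.

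Values were TPM, transcript abundances scaled to the same total in each library and corrected for gene length. Since read numbers cannot be had from TPM, sequencing depth is unknown. The albumin gene Alb was at 44225 to 52052 TPM in rMSA livers, and the 9 hepatocyte markers in the table summed to 102449 to 108881 TPM in rMSA livers and 85713 to 100380 TPM in saline livers. In AML12 cells the 8 of these markers in the table summed to only 181 to 440 TPM over all groups, Cps1 was listed at 0 in every library of rMSA with insulin, rMSA and vehicle, and Hnf4a, a transcription factor of hepatocytes, was at 51.0 to 132 TPM. The share of TPM on ribosomal protein genes was 31.4% and 33.6% for insulin libraries 1 and 2, compared with 25.04% for insulin library 3 and 20.7% to 26.2% for the other 9 AML12 libraries. Insulin libraries 1 and 2 therefore stood apart, and members called against the insulin group are given with and without them.

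Amino acid transporters fall into a few functional kinds. SLC38 proteins use the sodium gradient to bring small neutral amino acids such as alanine and glutamine into cells (system A) or to move glutamine, histidine and asparagine in either direction (system N). SLC1 proteins carry glutamate or exchange neutral amino acids. SLC7 proteins are either cationic amino acid transporters, which work alone, or light chains, which reach the membrane only when bound to a heavy chain of the SLC3 family. SLC43 proteins let large neutral amino acids equilibrate across the membrane, and SLC36 proteins move small amino acids with protons, in part out of lysosomes. In the liver these carriers feed ureagenesis, gluconeogenesis and glutamine cycling between the periportal and the pericentral hepatocytes.

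The start regions of 5 members that carry results below are shown, and no such region was on hand for Slc1a5, Slc7a5, Slc7a2 or Slc38a3. For a gene with several starts, the start with the most matches to the motif marked below was taken. Of the other Slc7a7 starts, 1 shares a match with the start shown, as given below, and the rest hold none. Slc1a4 and Slc3a2 rose in AML12 cells given rMSA with insulin, Slc7a7 moved in opposite directions in liver and cells, and Slc43a1 and Slc38a2 fell in liver. Each is 210 bases long, 200 before the transcript start and 10 from it, from RefSeq on GRCm38.p6, written 5′ to 3′ on the gene's own strand. Capitals mark TGATGNAA or its reverse complement TTNCATCA, the core of the site through which ATF4 acts on genes of the amino acid response.
Slc1a4, chr11:20332704-20332913 (minus strand): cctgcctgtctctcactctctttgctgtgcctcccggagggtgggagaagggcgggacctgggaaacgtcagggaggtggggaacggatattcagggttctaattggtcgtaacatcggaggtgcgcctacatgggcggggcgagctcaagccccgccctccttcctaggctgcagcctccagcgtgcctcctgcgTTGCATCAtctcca
Slc7a7, chr14:54417935-54418144 (minus strand): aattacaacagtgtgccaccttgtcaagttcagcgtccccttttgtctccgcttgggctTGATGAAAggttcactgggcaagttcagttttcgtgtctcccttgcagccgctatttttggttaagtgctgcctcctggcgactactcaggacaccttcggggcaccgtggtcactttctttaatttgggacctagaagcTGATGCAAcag
Slc3a2, chr19:8713888-8714097 (minus strand): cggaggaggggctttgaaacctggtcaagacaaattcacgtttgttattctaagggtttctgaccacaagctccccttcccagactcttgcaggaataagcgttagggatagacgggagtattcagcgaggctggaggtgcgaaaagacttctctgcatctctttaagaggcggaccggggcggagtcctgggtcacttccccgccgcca
Slc43a1, chr2:84840123-84840332 (plus strand): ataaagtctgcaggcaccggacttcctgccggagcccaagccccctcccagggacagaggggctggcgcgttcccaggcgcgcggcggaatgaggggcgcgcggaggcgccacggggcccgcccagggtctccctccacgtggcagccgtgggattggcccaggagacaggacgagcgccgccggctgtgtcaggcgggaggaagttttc
Slc38a2, chr15:96699719-96699928 (minus strand): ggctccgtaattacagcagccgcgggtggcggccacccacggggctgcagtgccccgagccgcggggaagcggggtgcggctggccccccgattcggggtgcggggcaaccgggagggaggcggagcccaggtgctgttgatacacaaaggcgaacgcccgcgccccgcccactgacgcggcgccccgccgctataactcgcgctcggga
Promoter windows of 300 bases, 250 before the start and 50 from it, were on hand for 28 members (39 windows), and 3 windows of 2 members held the motif on either strand. Of all 32851 such windows in the genome, 3.97% held it. In Slc1a4 the match reads TTGCATCA and begins 4 bases before the start. One Slc7a7 start has TGATGAAA beginning 141 bases before it and TGATGCAA beginning 1 base before it, and this last copy also lies in the window of a second Slc7a7 start. A match of letters is a description of the sequence, and its absence from the Slc3a2, Slc43a1 and Slc38a2 windows says nothing of other regions of these genes.

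Liver and AML12 cells used different transporters. In the liver 22 of the 37 members averaged 1 TPM or more and were tested, 12 reached 10 TPM and 3 reached 100 TPM. Slc38a3, the glutamine carrier of system N also called SNAT3, was the most abundant member, and with Slc38a4, a system A carrier (SNAT4) of liver, and Slc7a2, the arginine and lysine transporter CAT2, it made up 78.2% to 84.4% of all member TPM in rMSA livers and 82.7% to 85.5% in saline livers. The next members by mean were Slc3a2 (70.6 TPM), Slc38a2 (64.0 TPM) and Slc38a10 (57.4 TPM). The 15 members under the minimum reached at most 0.85 TPM in any liver library, and Slc36a2 and Slc7a13 were listed at 0 in all 6. Nearest to the minimum were Slc7a4 above it, with a mean of 1.23 TPM, and Slc1a7 below it, with a mean of 0.577 TPM.

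In AML12 cells 18 of the 32 members were tested, and 1 gene dominated. Slc3a2, which codes the heavy chain CD98hc (4F2hc) of several SLC7 light chains, had a mean of 1250 TPM and made up 72.8% to 77.3% of all member TPM with rMSA and insulin, 66.9% to 71.3% with rMSA, 63.5% to 76.6% with insulin and 59.5% to 63.9% with vehicle. The system A gene Slc38a2 (SNAT2) followed at 108 TPM, then Slc1a5 (91.5 TPM), Slc38a10 (73.7 TPM), Slc38a7 (53.7 TPM) and Slc7a5 (37.7 TPM). Slc7a2 and Slc43a3, at 160 and 35.1 TPM in liver, had means of 0.0292 and 0.0408 TPM in AML12 cells, while Slc7a6 and Slc7a1, at 22.9 and 12.9 TPM in the cells, had means of 0.313 and 0.467 TPM in liver. The 14 members under the minimum reached at most 0.91 TPM in any AML12 library. Nearest to the minimum were Slc7a3 above it, with a mean of 1.47 TPM, and Slc1a2 below it, with a mean of 0.607 TPM. Both tables were normalized separately, so these levels are set side by side with no test.

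**Figure D1:**
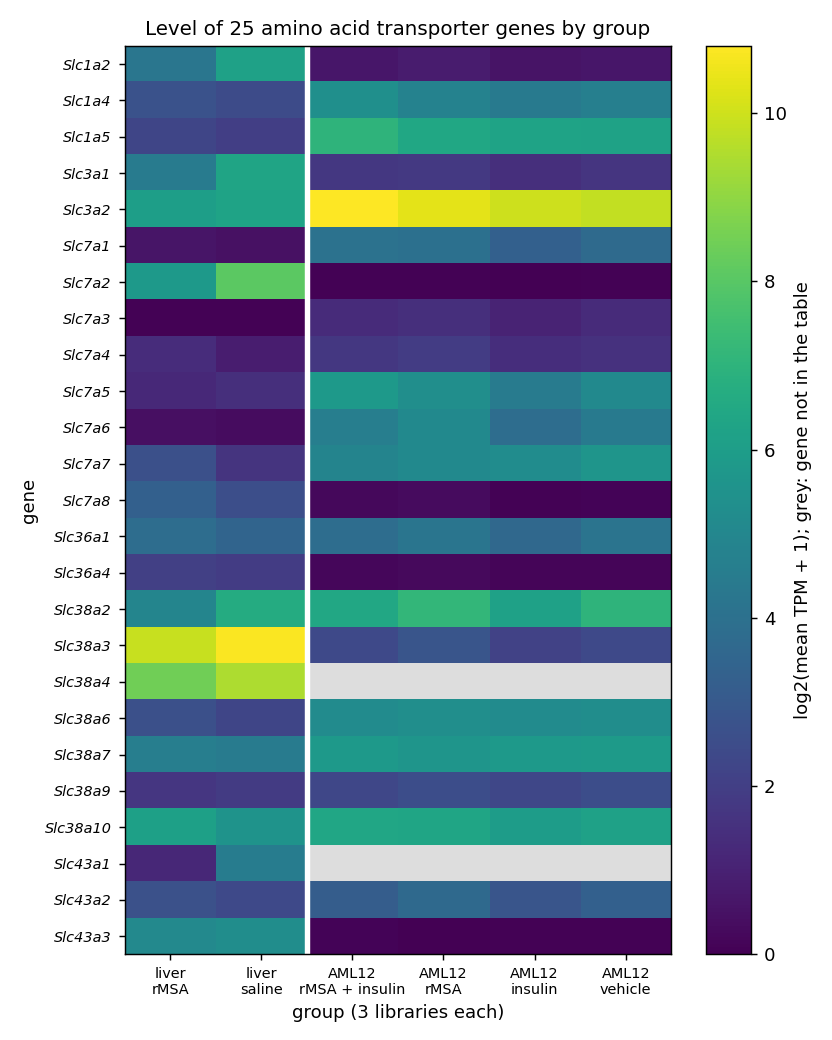
Level of the 25 members tested in at least 1 experiment (rows, by family) in the 6 groups (columns), as log2 of the mean TPM of 3 libraries plus 1; grey marks genes that are not in the table. Slc38a3, Slc38a4 and Slc7a2 are bright in the liver columns, and Slc3a2 is the brightest row in all 4 AML12 columns.

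The first question is which transporter genes differed in the liver of db/db mice after 9 weeks of rMSA. Of the 22 members tested, 7 fell and 4 rose at an adjusted p under 0.05 (limma on log2(TPM + 1), Benjamini-Hochberg over all 11398 genes tested), where 8.38% of all genes fell and 21.8% rose. Of those 7, all but Slc38a3 fell at least 2-fold on the log2(TPM + 1) scale, and of those 4 only Slc7a7 rose that far, where 2.67% of all genes fell and 5.94% rose as much. The most abundant carriers were among those that fell, so that the members summed to 1931, 1540 and 1529 TPM in the rMSA livers, against 2995, 3412 and 3060 TPM in the saline livers. The median log2 fold change was -0.01 over the 22 members and 0.12 over all genes. In whole liver, fewer cells of a type and less RNA per cell cannot be told apart.

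The carriers of neutral amino acids of the SLC38 family fell together at the top of the range of levels. Slc38a3 had 1198, 892 and 748 TPM in rMSA livers, against 1417, 1866 and 1777 TPM in saline livers, and the groups did not overlap. Its log2 fold change was -0.85 (SE 0.19, adjusted p = 0.00984, limma). Slc38a4 had 374, 282 and 380 TPM in rMSA livers, against 764, 757 and 608 TPM in saline livers. The lowest saline liver was well above the highest rMSA liver, and the log2 fold change was -1.04 (SE 0.15, adjusted p = 0.00138, limma). Slc38a2, the system A gene that many cells induce when amino acids run short, had 24.9, 23.6 and 39.1 TPM in rMSA livers, against 110, 96.4 and 89.7 TPM in saline livers. All 3 rMSA livers lay far below the saline livers, with a log2 fold change of -1.75 (SE 0.19, adjusted p = 0.000336, limma). Slc38a2 and Slc38a4 are neighbours on chromosome 15 (chr15:96687392-96699728 and chr15:96994816-97055956) with no protein-coding gene between them, and Slc38a1, 44.0 kb from Slc38a2 on its other side, had a mean of only 0.572 TPM.

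Other SLC38 members did not follow them. Slc38a10, a little-studied member found on membranes inside cells, rose to 63.8, 74.7 and 70.5 TPM in rMSA livers, against 41.5, 42.6 and 51.5 TPM in saline livers, with a log2 fold change of 0.62 (SE 0.12, adjusted p = 0.00583, limma). With every library centred on its median, which moved the median of all genes to -0.02, Slc38a10 was at 0.48 (adjusted p = 0.0543, limma). Slc38a9, the lysosomal arginine sensor of the mTORC1 kinase, had a log2 fold change of -0.16, Slc38a7, which exports glutamine and asparagine from lysosomes, had 0.14, and Slc38a6 had 0.39 (adjusted p of 0.538, 0.42 and 0.12, limma). The groups overlapped for Slc38a9 and Slc38a7.

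Slc43a1, which codes the facilitated carrier LAT3 for leucine and other large neutral amino acids, had the largest change of all members. It had 1.80, 1.42 and 0.69 TPM in rMSA livers, against 17.7, 25.8 and 22.5 TPM in saline livers, so that its mean in rMSA livers was 5.92% of that in saline livers. The log2 fold change was -3.34 (SE 0.22, adjusted p = 3.55e-05, limma), and since the rMSA values were near the 1 TPM that was added, this scale understates the change: it was -4.05 with 0.1 TPM added and -2.09 with 5 TPM added. Slc43a3, which lies 73.0 kb away on chromosome 2 (chr2:84936545-84958509, Slc43a1 at chr2:84838855-84863586) and codes a purine base carrier rather than an amino acid carrier, had 27.0, 33.5 and 36.9 TPM in rMSA livers, against 41.0, 35.8 and 36.6 TPM in saline livers. These groups overlapped, and the log2 fold change was -0.22 (adjusted p = 0.254, limma). Slc43a2, the leucine carrier LAT4, had a log2 fold change of 0.32 (adjusted p = 0.145, limma).

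Among carriers of charged amino acids, Slc7a2 (chr8:40862341-40922070) had 59.1, 39.7 and 66.4 TPM in rMSA livers, against 296, 296 and 206 TPM in saline livers. The means differed 4.83-fold and the log2 fold change was -2.26 (SE 0.21, adjusted p = 0.000162, limma). Slc7a2 was the only cationic amino acid transporter gene of the liver with a high level, since Slc7a1 and Slc7a3 had means of 0.467 and 0.0417 TPM. Slc1a2 (chr2:102658239-102790784), which codes the glutamate transporter GLT-1 and is known from pericentral hepatocytes, had 19.8, 18.4 and 15.8 TPM in rMSA livers, against 69.1, 92.4 and 52.3 TPM in saline livers. Again no rMSA liver reached the lowest saline liver, with a log2 fold change of -1.90 (SE 0.20, adjusted p = 0.00028, limma). Slc1a4 and Slc1a5, the neutral exchangers ASCT1 and ASCT2, had log2 fold changes of 0.26 and 0.26 (adjusted p of 0.207 and 0.246, limma).

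Of the 2 heavy chains in liver 1 fell, and of the 3 light chains tested 2 rose. Slc3a1 (chr17:85028347-85064241), the heavy chain rBAT of the cystine and dibasic amino acid exchanger, had 30.7, 18 and 14.9 TPM in rMSA livers, against 92.6, 69.9 and 73.6 TPM in saline livers, with a log2 fold change of -1.90 (SE 0.24, adjusted p = 0.000811, limma). Of its exon bases 26.5% are shared with Prepl on the opposite strand, and whether the counting used strand is not given, so that reads of the pair cannot be told apart there. Prepl was at 8.89 to 11.8 TPM in rMSA livers and 8.95 to 12.3 TPM in saline livers, with a log2 fold change of 0.02 (adjusted p = 0.952, limma). Slc3a2, the other heavy chain, had 55.6, 72.7 and 69.1 TPM in rMSA livers, against 77.7, 67.7 and 80.8 TPM in saline livers, and these groups overlapped (log2 fold change -0.20, adjusted p = 0.29, limma).

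Light chains that bind Slc3a2 were higher with rMSA where they passed the test. Slc7a7, the light chain y+LAT1 that exports lysine and arginine in exchange for neutral amino acids and is defective in human lysinuric protein intolerance, had 3.92, 6.73 and 5.27 TPM in rMSA livers, against 3.26, 1.55 and 1.54 TPM in saline livers. The groups lay close, without overlap, and the log2 fold change was 1.04 (SE 0.25, adjusted p = 0.0158, limma). Its call was lost in 4 of 17 alternatives. Among them were the fits without saline liver 2, rMSA liver 2 or rMSA liver 3 (adjusted p of 0.0626, 0.0559 and 0.0514, limma). Slc7a8, the light chain LAT2, rose to 7.67, 9.73 and 9.72 TPM in rMSA livers, against 5.51, 5.33 and 4.34 TPM in saline livers, with a log2 fold change of 0.73 (SE 0.15, adjusted p = 0.00849, limma). Slc7a5, the light chain LAT1, was low, at 1.27, 1.05 and 1.75 TPM in rMSA livers and 1.61, 1.82 and 1.83 TPM in saline livers, and the groups overlapped (log2 fold change -0.23, adjusted p = 0.325, limma). Per TPM of Slc7a5, Slc7a6, Slc7a7, Slc7a8 and Slc7a10 together, Slc3a2 was at 4.26, 4.07 and 3.99 in rMSA livers, against 7.21, 7.63 and 10.1 in saline livers, a ratio given as a description.

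Slc36a1, the proton-coupled carrier PAT1 of lysosomes, had 13.7, 12.3 and 14.03 TPM in rMSA livers, against 9.28, 10.6 and 10.2 TPM in saline livers, and its log2 fold change of 0.38 only just passed (SE 0.12, adjusted p = 0.0464, limma). Leaving out any 1 of the 6 livers ended this call (adjusted p of 0.0738 to 0.138, limma). Over all 18 alternatives the Slc36a1 call was lost in 11, with an adjusted p of up to 0.2145 (limma). The remaining members, Slc7a4 and Slc36a4, had log2 fold changes of 0.49 and 0.14 (adjusted p of 0.0614 and 0.67, limma). In all, rMSA and saline livers did not overlap for 15 members, 7 lower with rMSA and 8 higher, where the same held for 13% and 32.7% of all genes.

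**Figure D2:**
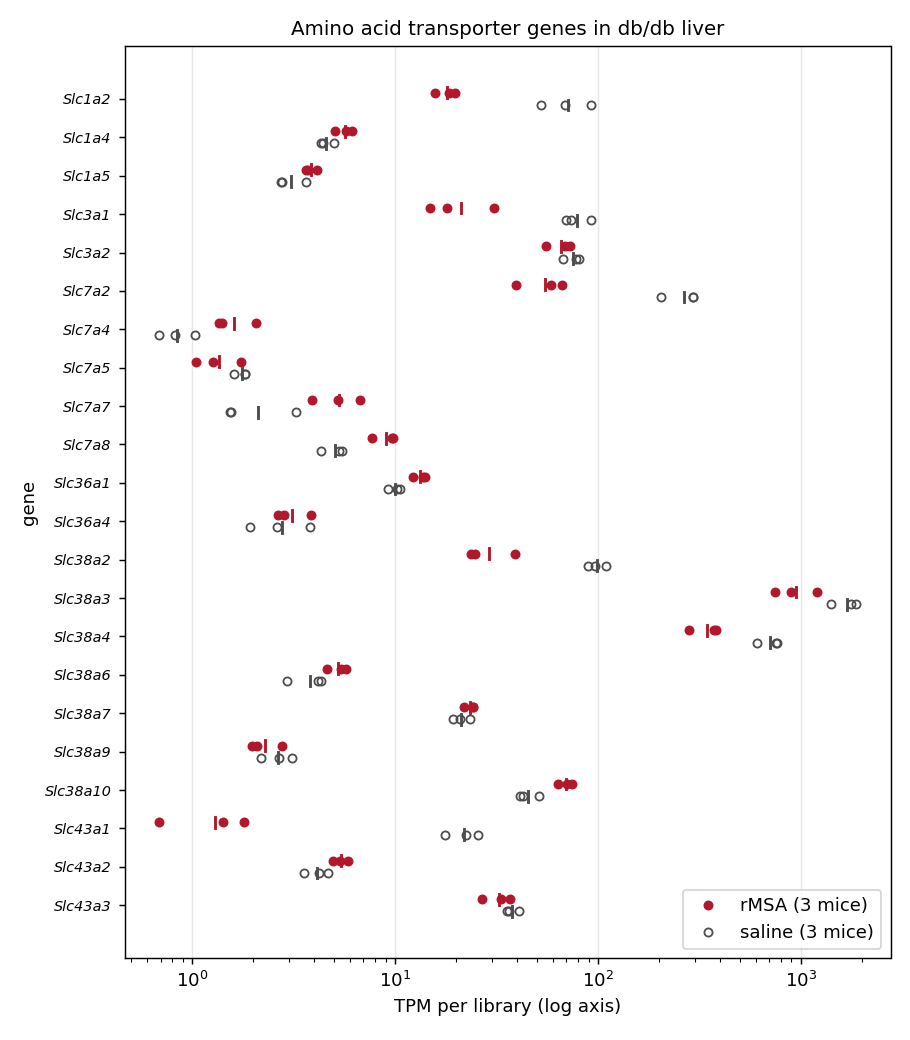
TPM (log axis) of the 22 members tested in liver, by family, with 1 point per mouse for rMSA (filled, upper row of each gene) and saline (open, lower row) and a bar at each mean of 3 mice. The points of Slc1a2, Slc3a1, Slc7a2, Slc38a2, Slc38a3, Slc38a4 and Slc43a1 with rMSA all lie left of those with saline.

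**Figure D3:**
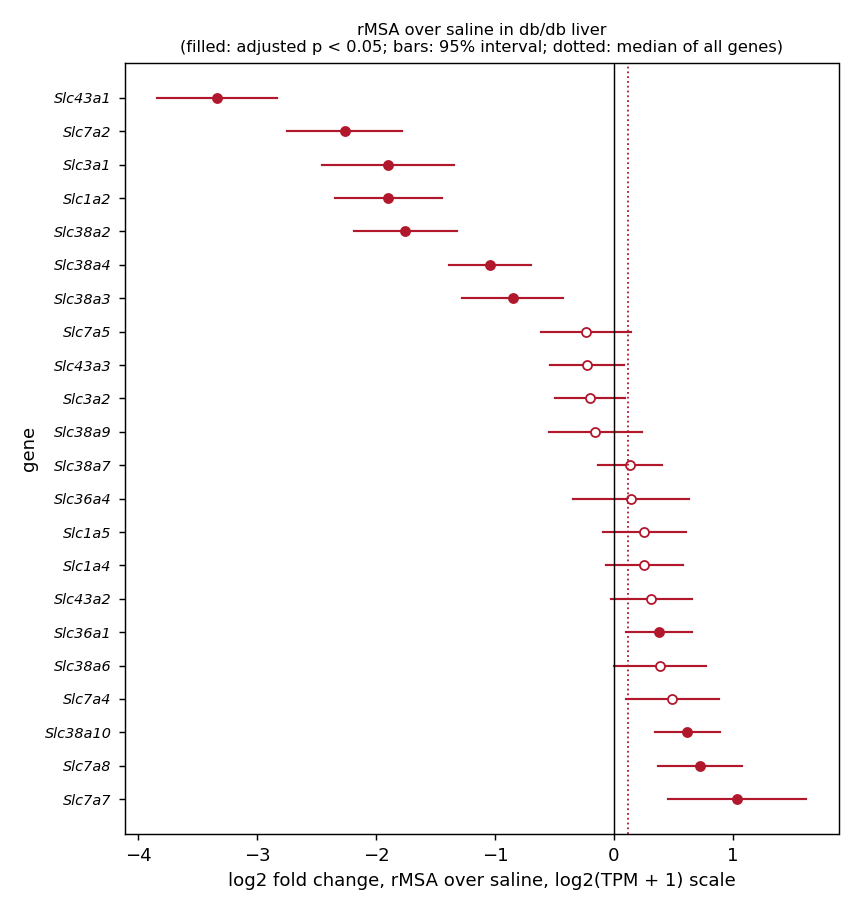
Log2 fold change of rMSA over saline on the log2(TPM + 1) scale for the 22 liver members, ordered by size, with 95% intervals from limma; filled points passed the adjusted p and the dotted line is the median of all genes (0.12). The 7 members that fell run from Slc43a1 at -3.34 to Slc38a3 at -0.85, and the 4 that rose reach 1.04 for Slc7a7.

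Genes around the transporters in the same livers were counted in the same way, and the shares of all genes to set these counts beside are again 21.8% higher and 8.38% lower. Of 16 amino acid carriers of other families 7 fell and 2 rose, and their median log2 fold change was -0.34. Those with the smallest p were Slc16a10, an exporter of aromatic amino acids (-2.06), the mitochondrial ornithine carrier gene Slc25a15 (-1.31), the mitochondrial glutamate carrier gene Slc25a22 (-1.51) and the betaine transporter gene Slc6a12 (-1.01). Of 19 enzymes of glutamine, glutamate, arginine and branched-chain amino acids 12 fell and 2 rose, with a median of -1.04. Tat, which starts tyrosine breakdown, averaged 618 TPM in rMSA livers and 4767 TPM in saline livers, and the ornithine aminotransferase gene Oat averaged 287 TPM in rMSA livers and 2726 TPM in saline livers.

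Of 19 genes through which amino acids reach mTORC1, 6 rose and 3 fell, not far from the shares of all genes. Ddit4 and Sesn2, which restrain mTORC1, fell with log2 fold changes of -2.73 and -1.10. Of 16 genes of the ATF4 and amino acid response list, 4 rose and 4 fell, with a median of -0.06. Asns, the asparagine synthetase gene, fell to 3.20 TPM in rMSA livers, against 23.2 TPM in saline livers, while Atf3, a stress-induced transcription factor gene, rose to 5.76 TPM in rMSA livers, against 1.24 TPM in saline livers.

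Some markers of position and of other cell types moved as well. Of 10 periportal hepatocyte genes 8 fell and none rose, and of 12 pericentral genes 5 fell and 2 rose. Glul, the glutamine synthetase gene, was 1 of the 2 pericentral genes that rose, to 729 TPM in rMSA livers, against 428 TPM in saline livers. Slc1a2, the member known from the same cells, fell, and so did Oat, a gene of the pericentral list named above among the enzymes. Of 10 stellate cell and fibroblast markers 6 rose, and the list summed to 460 to 618 TPM in rMSA livers and 371 to 471 TPM in saline livers. Of 6 cholangiocyte markers tested 4 rose, and all 8 summed to 80.2 to 173 TPM in rMSA livers and 23.9 to 39.6 TPM in saline livers. Macrophage markers, which bear on Slc7a7 since macrophages also use it, rose for 1 and fell for 1 of 10 and summed to 669 to 976 TPM in rMSA livers and 655 to 966 TPM in saline livers. Of 9 lymphocyte and neutrophil markers 3 rose and 1 fell, and of 10 endothelial markers 1 rose. Of 9 hepatocyte markers 4 fell, Hnf4a and Cps1 among them, and 2 rose. No marker of these lists was listed at 0 throughout a group, and their part in the transporter results was not tested.

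The second question is what rMSA did to the same genes in cultured hepatocytes without insulin. Of the 18 members tested in AML12 cells, 1 rose and 1 fell with rMSA over vehicle, where 5.9% of all 10826 genes rose and 1.89% fell. Slc3a2 (chr19:8706882-8723369) rose to 1290, 1358 and 1303 TPM with rMSA, against 845, 893 and 954 TPM with vehicle. Every rMSA library was above every vehicle library, with a log2 fold change of 0.55 (SE 0.09, adjusted p = 0.00367, limma). With every library centred on its median the value was 0.49 (adjusted p = 0.271, limma).

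Slc7a7 (chr14:54369442-54420068), the light chain that rose in liver, fell to 36.8, 32.8 and 32.0 TPM with rMSA, against 49.0, 46.7 and 49.9 TPM with vehicle. No rMSA library reached the vehicle libraries, and the log2 fold change was -0.51 (SE 0.12, adjusted p = 0.0251, limma). The call was lost without any 1 of the 3 vehicle libraries or without rMSA library 2 or 3 (adjusted p of 0.0731 to 0.103, limma). Slc7a7 shares 8.82% of its exon bases with Oxa1l on the opposite strand, a gene of mitochondrial protein insertion that was at 64.3 to 69.9 TPM with rMSA and 82.6 to 86.0 TPM with vehicle (log2 fold change -0.31, adjusted p = 0.0164, limma). In liver Oxa1l was at 39.7 to 42.7 TPM with rMSA and 44.8 to 53.0 TPM with saline (-0.23, adjusted p = 0.137, limma), while Slc7a7 rose, and the part of shared reads in either result was not tested.

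Most members did not pass the test without insulin. The sodium-coupled genes Slc38a3 and Slc38a2 had log2 fold changes of 0.50 and 0.09 (adjusted p of 0.0534 and 0.977, limma). Slc38a3, the leading member of liver, was at 6.67, 5.86 and 6.31 TPM with rMSA, against 4.81, 3.83 and 3.83 TPM with vehicle. The lysosomal gene Slc38a7 was at 51.0, 50.1 and 42.7 TPM with rMSA, against 58.1, 56.2 and 58.2 TPM with vehicle, and Slc36a1 overlapped (log2 fold changes of -0.26 and 0.05, adjusted p of 0.266 and 0.981, limma). The light chain genes Slc7a6 (y+LAT2) and Slc7a5 had 0.66 and 0.19 (adjusted p of 0.263 and 0.88, limma). The groups did not overlap for 8 members, 6 higher and 2 lower with rMSA, where this held for 25.5% and 14.2% of all genes. In a fit of only the vehicle and rMSA libraries, which leaves out the spread of the insulin group, 5 members rose (Slc3a2, Slc7a4, Slc7a6, Slc38a3 and Slc43a2) and 2 fell (Slc7a7 and Slc38a7), where 16.9% of all genes rose and 7.39% fell. In the fit of all 12 AML12 libraries, where 5.9% of all genes rose and 1.89% fell, 1 of 5 hepatocyte markers rose and 1 fell. Of 5 cholangiocyte markers 1 rose and none fell. The hepatocyte gene Ttr averaged 51.2 TPM with rMSA and 171 TPM with vehicle, while Apob, of the same list, averaged 30.7 TPM with rMSA and 12.8 TPM with vehicle. Spp1, a cholangiocyte marker, averaged 690 TPM with rMSA and 201 TPM with vehicle. The 6 cholangiocyte markers in the table summed to 1771 to 2311 TPM over all groups, and the part of these markers in the member results was not tested.

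The third question is what rMSA did when insulin was present. Of the 18 members, 5 rose and none fell with rMSA and insulin over insulin alone, where 14.5% of all genes rose and 2.73% fell, and at an unadjusted p under 0.05 Slc7a7 and no other member fell. Those that rose were the heavy chain Slc3a2, its light chain Slc7a5, the exchangers Slc1a4 and Slc1a5, and Slc38a10. Of these 5, Slc7a5 and Slc1a4 rose at least 2-fold on the log2(TPM + 1) scale, where 2.29% of all genes rose as much. The median log2 fold change was 0.35 over the 18 members and 0.21 over all genes, and without insulin libraries 1 and 2 these medians were 0.14 and -0.13.

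Slc3a2 had 1765, 1853 and 1715 TPM with rMSA and insulin, against 892, 1158 and 980 TPM with insulin. The groups were far apart, with a log2 fold change of 0.82 (SE 0.09, adjusted p = 0.000198, limma). Slc1a5 (chr7:16781334-16798274), the glutamine exchanger ASCT2, had 130, 130 and 132 TPM with rMSA and insulin, against 64.6, 77.6 and 86.5 TPM with insulin. Its log2 fold change was 0.78 (SE 0.10, adjusted p = 0.000642, limma), and it was 0.59 against insulin library 3 alone, the lone library being taken to vary like the other groups (adjusted p = 0.00186, limma). Slc3a2 held in the same setting at 0.86 (adjusted p = 8.91e-05, limma), so that both calls stood without insulin libraries 1 and 2. With every library centred on its median, Slc3a2 was at 0.57 and Slc1a5 at 0.52 (adjusted p of 0.138 and 0.0534, limma).

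Slc7a5 (chr8:121881146-121907686), which codes LAT1, the main importer of leucine and other essential amino acids in growing cells, had 54.5, 48.0 and 63.8 TPM with rMSA and insulin, against 15.7, 13.8 and 35.0 TPM with insulin. All 3 libraries with both were above all 3 with insulin, but insulin library 3 was at about the level of vehicle, 35.3, 35.4 and 31.7 TPM. The log2 fold change was 1.43 (SE 0.28, adjusted p = 0.006, limma) and 0.64 without insulin libraries 1 and 2 (adjusted p = 0.0336, limma), and the call was lost when only the compared groups were fitted (adjusted p = 0.0881, limma). Slc1a4 (chr11:20302180-20332713), the alanine, serine and cysteine exchanger, had 39.3, 37.6 and 46.6 TPM with rMSA and insulin, against 15.9, 15.4 and 29.8 TPM with insulin. Insulin library 3 again stood above the other insulin libraries. The log2 fold change of 1.04 (SE 0.22, adjusted p = 0.00861, limma) was 0.45 without insulin libraries 1 and 2, which ended the call (adjusted p = 0.0631, limma), as did fitting only the compared groups (adjusted p = 0.108, limma).

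Slc38a10 (chr11:120103951-120151351) had 83.4, 77.8 and 84.1 TPM with rMSA and insulin, against 56.3, 58.7 and 70.5 TPM with insulin, and the groups did not overlap. Its log2 fold change of 0.40 (SE 0.09, adjusted p = 0.0136, limma) was 0.21 without insulin libraries 1 and 2 (adjusted p = 0.0911, limma), and the call was also lost without insulin library 1 or without library 1 or 3 of both agents (adjusted p of 0.0519 to 0.062, limma). With median centring it was 0.15 (adjusted p = 0.516, limma), and the call was further lost with quantile normalization or with only the compared groups (adjusted p of 0.0781 and 0.162, limma). Slc7a7 had 28.9, 25.5 and 29.7 TPM with rMSA and insulin, against 39.9, 30.2 and 40.2 TPM with insulin, with a log2 fold change of -0.37 (adjusted p = 0.0594, limma). It passed as lower without insulin libraries 1 and 2, at -0.51 (adjusted p = 0.00994, limma), and also with a replicate block, median centring or quantile normalization. Slc38a7 was at 51.8, 53.3 and 58.2 TPM with rMSA and insulin, against 45.8, 55.8 and 63.4 TPM with insulin, and overlapped (log2 fold change -0.0043, adjusted p = 0.984, limma). Other members of the SLC7 family, Slc7a6 and Slc7a1 (the cationic carrier CAT1), had log2 fold changes of 0.87 and 0.82 with wide spread (SE of 0.30 and 0.28, adjusted p of 0.0725 and 0.0682, limma), which were 0.14 and 0.09 without insulin libraries 1 and 2. The groups did not overlap for 7 members, 6 higher and 1 lower with both agents, where this held for 20.7% and 4.81% of all genes.

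**Figure D4:**
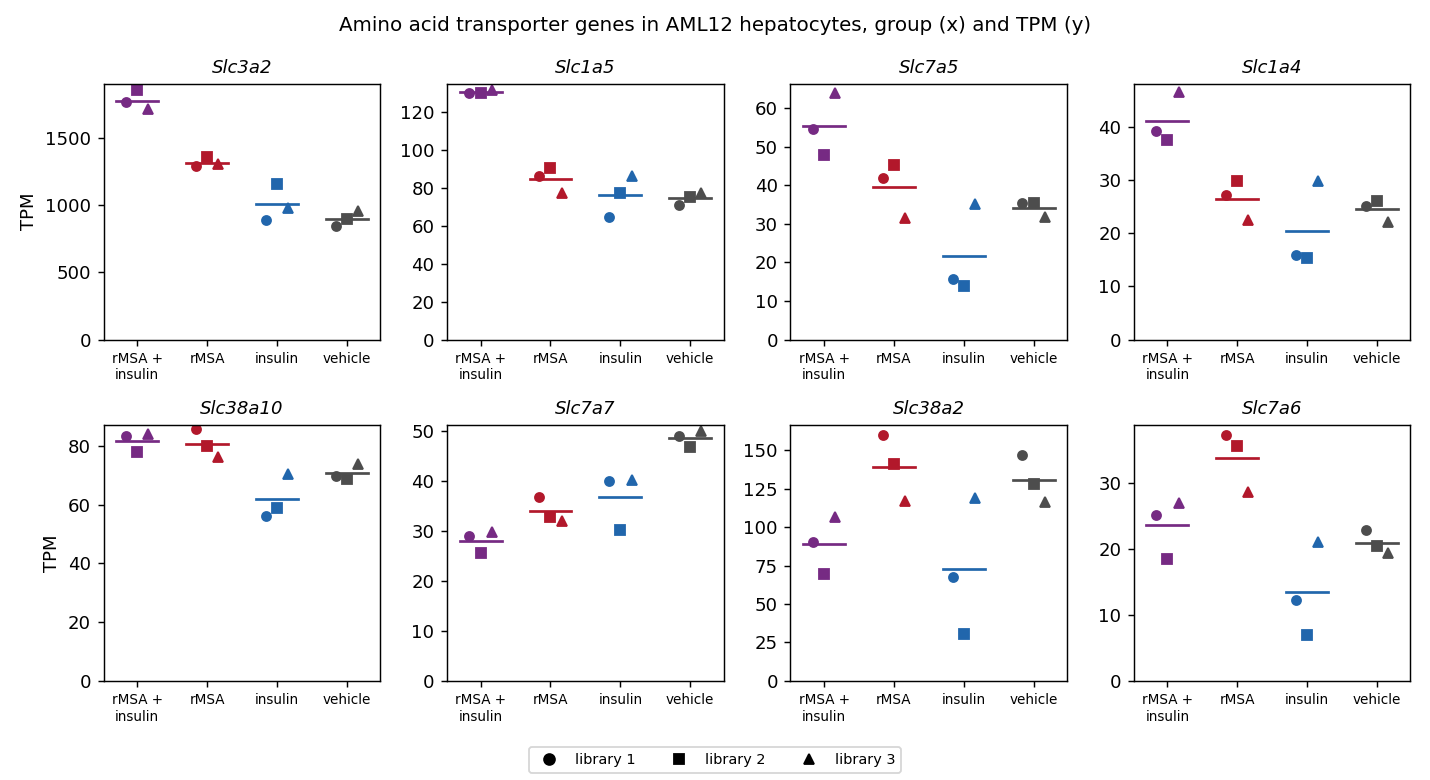
TPM of 8 members in the 12 AML12 libraries, by group, with 1 point per library (circle, square and triangle for libraries 1, 2 and 3), a bar at each mean and axes from 0. Slc3a2 and Slc1a5 are highest with rMSA and insulin in all 3 libraries, and for Slc7a5, Slc1a4, Slc38a2 and Slc7a6 the triangle of insulin library 3 lies above the other 2 insulin libraries.

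**Figure D5:**
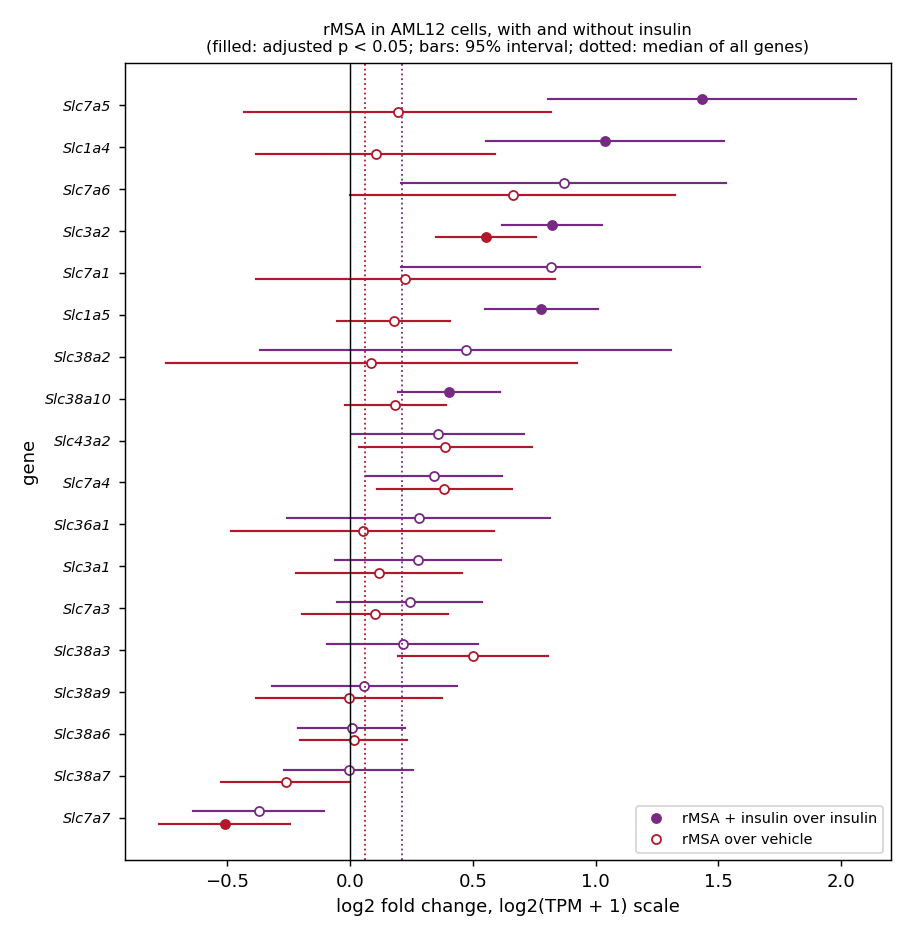
Log2 fold changes on the log2(TPM + 1) scale of the 18 members tested in AML12 cells, for rMSA with insulin over insulin (upper row of each gene) and rMSA over vehicle (lower row), with 95% intervals from limma; filled points passed the adjusted p and dotted lines are the medians of all genes (0.21 and 0.06). Slc7a5 is at 1.43 with insulin and 0.19 without it, and Slc3a2 is filled in both rows.

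Whether rMSA acted differently with and without insulin was tested by the interaction of both agents. No member passed it in either direction, where 0.0369% of all genes passed as higher and 0% as lower. The median interaction was 0.21 over the 18 members and 0.14 over all genes. At an unadjusted p under 0.05 there were 3 members with a larger rMSA effect in the presence of insulin, Slc7a5 (interaction 1.24 on the log2 scale), Slc1a4 (0.93) and Slc1a5 (0.60), and no member with a smaller one. The lowest adjusted p among the 18 was 0.399 (limma). Without insulin libraries 1 and 2 these interactions were 0.44 for Slc7a5, 0.34 for Slc1a4 and 0.41 for Slc1a5, with a lowest adjusted p among the 18 of 0.13 (limma). At an unadjusted p under 0.05 there were then 2 members with a larger effect, Slc1a5 and Slc3a2, and 1 with a smaller one, Slc43a2. A larger rise of Slc7a5, Slc1a4 or Slc1a5 with insulin was therefore not shown, and their passing in only 1 of the comparisons is no such test.

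Insulin alone changed no member at an adjusted p under 0.05, and the count for all genes was 0 as well (0%). At an unadjusted p under 0.05 no member was higher and 6 were lower with insulin over vehicle, namely Slc7a5, Slc7a6, Slc7a7, Slc36a1, Slc38a2 and Slc43a2, with a lowest adjusted p of 0.135 (limma). The median log2 fold change was -0.28 over the 18 members and -0.30 over all genes. The insulin libraries differed among themselves. Slc38a2 was at 67.8, 30.5 and 119 TPM with insulin, against 147, 128 and 116 TPM with vehicle, so that insulin library 3 matched vehicle and the other insulin libraries did not. Slc7a6 was at 12.2, 7.01 and 21.0 TPM with insulin, against 22.9, 20.5 and 19.3 TPM with vehicle, in the same pattern. For 4 members (Slc7a3, Slc7a7, Slc38a3 and Slc43a2) every insulin library was below every vehicle library, where this held for 11.8% of all genes. This comparison shares its vehicle and its insulin libraries with the rMSA comparisons above. Without insulin library 3 there were 10 members lower than vehicle, where 61.4% of all genes were, and without insulin libraries 1 and 2 no member passed, where 0.12% of all genes were higher and 0.0277% lower.

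Adding insulin to rMSA raised 2 members and lowered none in the fit of all 12 AML12 libraries, where 2.95% of all genes rose and 1.1% fell, and 3 members were higher and 2 lower at an unadjusted p under 0.05. The median log2 fold change was -0.12 over the 18 members and -0.15 over all genes. With only the compared groups in the fit, which leaves out the spread of the insulin group, 5 members fell. Fewer than 5 rose, though more than in the fit of all 12 AML12 libraries. In this setting 12% of all genes rose and 30.7% fell. This comparison shares its rMSA libraries with that of rMSA over vehicle and its libraries of both agents with that over insulin. Slc1a5 was higher with both agents than with rMSA alone, which gave 86.3, 90.3 and 77.2 TPM (log2 fold change 0.62, SE 0.10, adjusted p = 0.0124, limma), and Slc3a2 was higher by 0.43 (SE 0.09, adjusted p = 0.0311, limma). Both calls were lost without any 1 of the 3 libraries with both agents or without rMSA library 1 or 3, and that of Slc3a2 also without any 1 vehicle library or rMSA library 2. Over all 26 alternatives the Slc3a2 call was lost in 11 and that of Slc1a5 in 5. Slc38a2 was at 90.4, 69.3 and 107 TPM with both agents, against 160, 141 and 117 TPM with rMSA, and the groups did not overlap, but the log2 fold change of -0.65 did not pass in the fit of all 12 AML12 libraries (SE 0.38, adjusted p = 0.264, limma). In all 11 members did not overlap, 5 higher and 6 lower, where this held for 18.6% and 37.1% of all genes.

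Slc3a2 made up most of the sum over all members in every AML12 library. The sum was 2362, 2397 and 2356 TPM with rMSA and insulin, 1928, 1967 and 1827 TPM with rMSA, 1278, 1511 and 1542 TPM with insulin, and 1419, 1444 and 1494 TPM with vehicle. Per TPM of the light chain genes Slc7a5, Slc7a6, Slc7a7 and Slc7a8 together, Slc3a2 was at 16.2, 20.1 and 14.2 with both agents, 11.1, 11.9 and 14.1 with rMSA, 13.1, 22.7 and 10.2 with insulin and 7.87, 8.71 and 9.44 with vehicle.

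Genes of the amino acid response were counted in the same libraries. Of 17 genes of the ATF4 and amino acid response list tested in AML12 cells, 14 rose and none fell with rMSA and insulin over insulin, with a median log2 fold change of 0.76, where 14.5% of all genes rose and 2.73% fell. With rMSA over vehicle 1 rose (Psph, 0.56) and 2 fell (Atf3 and Ddit3, -1.08 and -0.87), with insulin over vehicle none passed, and with both agents over rMSA 11 rose and none fell. Atf4 itself averaged 766 TPM with rMSA and insulin and 530 TPM with insulin. Chac1, an ATF4 target that breaks down glutathione, averaged 93.3 TPM with rMSA and insulin and 39.2 TPM with insulin. Slc1a4, which holds the TTGCATCA match shown above, and Slc7a5, Slc3a2 and Slc1a5 are known targets of this response in mammalian cells, and these 4 members rose in the same comparison as those 14 genes. The call of Slc1a4 was lost without insulin libraries 1 and 2. Slc7a7, with the other matches shown above, was lower (log2 fold change -0.37) and did not pass, and the Slc3a2 window holds no match. Whether ATF4 acted on any member here was not tested. Slc38a2, another known target, was at 90.4, 69.3 and 107 TPM with both agents, against 67.8, 30.5 and 119 TPM with insulin, and overlapped (log2 fold change 0.47, adjusted p = 0.436, limma, and -0.44 without insulin libraries 1 and 2). Of 14 amino acid carriers of other families, 2 rose and none fell with both agents over insulin, among them the glycine transporter gene Slc6a9 at 74.9 TPM with rMSA and insulin and 40.1 TPM with insulin. Of 18 mTORC1 sensing genes 3 rose and none fell, and the shares that rose of both lists were near that of all genes. Ddit4 and Sesn2, which fell in rMSA livers, had log2 fold changes of 1.27 and 0.98 here. Without insulin libraries 1 and 2, an alternative chosen after seeing the data, 11 genes of the ATF4 list rose and none fell, while of the other carriers 1 rose and 5 fell, and of the mTORC1 sensing genes 3 rose and 3 fell, where 13.2% of all genes rose and 17% fell. With the same libraries left out, 5 genes of the ATF4 list rose and 2 fell for rMSA over vehicle (15.3% and 6.74% of all genes), and 14 rose and none fell for both agents over rMSA (14.4% and 36.8% of all genes).

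Several members lie close together in the genome, a feature the choice by symbol did not use. Within 500 kb of each other on GRCm38 were Slc38a1, Slc38a2 and Slc38a4 on chromosome 15, Slc43a1 and Slc43a3 on chromosome 2, Slc7a7 and Slc7a8 on chromosome 14 (302 kb apart, with 15 protein-coding genes between), Slc36a1 and Slc36a2 on chromosome 11, and Slc7a9 and Slc7a10 on chromosome 7. In liver both tested members on chromosome 15 fell and both on chromosome 14 rose, while on chromosome 2 Slc43a1 fell and Slc43a3 overlapped between groups. In AML12 cells Slc7a8 had a mean of 0.128 TPM beside Slc7a7 at 36.8 TPM. Shared exon bases were found for 6 of the 25 tested members, all with a gene on the opposite strand, and besides Slc3a1 and Slc7a7 they covered at most 7.62% of the exon bases.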

How the data were processed

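The authors deposited TPM values for 6 liver and 12 AML12 libraries, 1 table per experiment, normalized separately and rounded to 2 decimals. Per the submitters' processing notes, reads from a BGISEQ sequencer were handled with Trimmomatic 0.33, STAR 2.5.2b and featureCounts of Subread 1.6.0 on GRCm38. Which annotation, strand setting and TPM formula were used is not given in these sources. The DESeq2 test of the study needs counts and was not run.

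TPM was taken to log2(TPM + 1). Genes averaging 1 TPM or more in a table (11398 in liver, 10826 in AML12) were fitted with limma 3.58.1 in R 4.3.3, with 1 mean per group, a variance trend over expression, and p-values were adjusted by Benjamini-Hochberg over all genes tested. All 12 AML12 libraries shared 1 fit. A member rose or fell at an adjusted p under 0.05, and a change was called 2-fold at a log2 fold change of at least 1. Members were the genes that fit the symbol pattern, of which 1 is not reported here. Values per library were given for members past both thresholds and for the 6 most abundant members of each table, and values for other members past the adjusted p. Library values of Slc43a3, and in AML12 of Slc38a3 and Slc7a6, were added after they were seen. Of each other gene list at most 4 genes were named, those that passed with the smallest p. The members and lists were chosen with earlier results of these data known. Positions and promoter sequences were taken from RefSeq (GRCm38.p6), and shared exon bases from GENCODE M21.

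In AML12 cells, libraries 1 and 3 of vehicle and rMSA deviated together with those of the same number (correlations of 0.53 and 0.58 over genes). Library 2 hardly did (0.14, against 0.18 for rMSA 2 with vehicle 1). Libraries 2 and 3 but not 1 of insulin and of both agents did so (0.095, 0.79 and 0.80). Libraries of insulin and vehicle did not (0.024, -0.062 and -0.66), nor did those of both agents and rMSA (0.11, -0.23 and -0.63). This pairing was taken from the data and not from the labels, and it did not hold in all comparisons. A fit with the replicate number as a block was run for every comparison. Alternatives covered the amount added to TPM, the filter, scaling, the variance model, the groups in the fit and leaving out libraries.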

Additional observations from a re-analysis of the deposited data

Results flagged for a closer look

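For 2 members rMSA libraries lay on opposite sides of their controls in liver and in AML12 cells, with no overlap in either, and this difference between the experiments was not tested. In liver every rMSA library lay above the controls for 32.7% of all genes and below them for 13%. These shares were 25.5% and 14.2% over vehicle and 20.7% and 4.81% over insulin. How many genes did so in opposite directions was not counted. Slc7a7, the light chain y+LAT1, had a log2 fold change of 1.04 in liver, against -0.51 in AML12 cells for rMSA over vehicle and -0.37 for rMSA with insulin over insulin, all on the log2(TPM + 1) scale. Slc38a3, the glutamine carrier SNAT3, had -0.85 in liver, against 0.50 for rMSA over vehicle and 0.21 for rMSA with insulin over insulin in AML12 cells. Of these values those of Slc7a7 and Slc38a3 in liver and that of Slc7a7 for rMSA over vehicle passed the test (limma adjusted p of 0.0158, 0.00984 and 0.0251), and Slc38a3 was at 892 TPM in rMSA liver 2 but at most 6.67 TPM in any AML12 library. With rMSA and insulin Slc38a3 was at 5.19, 3.72 and 3.65 TPM, against 3.44, 3.23 and 3.63 TPM with insulin, so that these groups nearly touched. The experiments differ in the system, the dose and the time.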

How the results depend on the processing

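No member that passed changed direction in any alternative, and the 7 falls and the rise of Slc7a8 in liver passed in all 18. In liver the count of members that rose was 4, and 2 with median centring or a replicate block, and the 7 that fell were 7 to 8 in all settings. The median of all genes in liver moved by 0.14 with centring (0.12 against -0.02), and higher and lower calls over all genes were 1642 and 1496 in place of 2487 and 955. For rMSA over vehicle, 1 member rose, and 2 did with 5 TPM added, no filter, quantile normalization or no mean-variance trend, 11 with array weights, 5 without insulin libraries 1 and 2, and 5 with only the compared groups. Of the members 1 fell, and 2 did with quantile normalization, array weights, without insulin libraries 1 and 2, and with only the compared groups. For rMSA with insulin over insulin, 5 rose, and 13 did with array weights, 3 without insulin libraries 1 and 2, and 2 with only the compared groups. None fell, and 1 (Slc7a7) did with median centring, quantile normalization, rescaling without the 50 highest genes or without ribosomal protein genes, array weights, a replicate block, and without insulin libraries 1 and 2. Over all genes here the calls were 1575 higher and 296 lower, and 707 and 740 with median centring. The same centring gave 607 higher and 333 lower in place of 639 and 205 for rMSA over vehicle, and 619 and 758 in place of 319 and 119 for both agents over rMSA. For insulin over vehicle none fell, and 14 did with array weights. For both agents over rMSA, 2 rose, and 4 did with quantile normalization, without insulin libraries 1 and 2 or with only the compared groups, 6 with array weights and 1 without the trend. None fell, and 12 did with array weights, 6 without insulin libraries 1 and 2, and 5 with only the compared groups. For the interaction 0 members passed, and 8 did with array weights, whose weights in AML12 did not converge. Under those weights 46.7% of all genes rose and 21.2% fell for rMSA over vehicle, and 51% rose and 8.41% fell for both agents over insulin. For insulin over vehicle 59.2% of all genes fell with them, and for both agents over rMSA 31.3% rose and 60% fell. The interaction then passed as higher for 31.8% of all genes and as lower for 4.11%. The cause of these changes was not tested.

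With 1 library left out, liver gave 2 to 4 members that rose and 7 to 7 that fell. In AML12 the ranges were 1 to 4 up and 0 to 1 down for rMSA over vehicle, 4 to 10 up and 0 to 1 down for both agents over insulin, 0 to 0 up and 0 to 10 down for insulin over vehicle, 0 to 4 up and 0 to 4 down for both agents over rMSA, and 0 to 3 up and 0 to 0 down for the interaction. The highest counts for both agents over insulin and for insulin over vehicle came without insulin library 3, where 49% of all genes rose and 61.4% of all genes fell, respectively. With 1 library left out, the shares of all genes in liver were 14.9% to 19.6% up and 5.55% to 9.23% down. For rMSA over vehicle they were 3.57% to 10.3% up and 0.961% to 4.01% down. They were 0.425% to 10.6% up and 0.0924% to 21.2% down for both agents over rMSA. The interaction passed as higher for 0% to 2.95% and as lower for 0% to 0.157% of all genes. Livers of the same number did not deviate together (correlations of 0.05, -0.41 and -0.39), and apart from the replicate block counts given here the block moved no count of members by over 1.5 times.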
